A study of Mus musculus with 24 samples.

Results

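The 6 genes described here, Srebf2, Abcg5, Abcg8, Abcb11, Cyp7b1 and Nr0b2, act in the sensing and export of sterols and in the synthesis and secretion of bile acids. They were chosen by symbol, with earlier results of these data known: each has at least 1 RefSeq transcript in the authors' deposited tables of transcripts whose level differed between diets, so that the adjusted p-values of those tables chose the members. In liver of C57BL/6J mice, 4 of the 6 genes had a row (Srebf2, Abcg5, Abcg8 and Abcb11, with 6 transcripts), and in liver of A/J mice 2 had one (Cyp7b1 and Nr0b2, with 2 transcripts). Of all transcripts tested, 3.46% had a row in C57BL/6J and 3.39% in A/J. No member had a row in both tables. Of all named genes with a row, 16.5% of those in C57BL/6J and 15.6% of those in A/J were in both, so that nothing is read from 6 genes. The whole series holds 862 named genes with a row in either table. None of the 6 encodes a receptor that takes up sterols into the hepatocyte, and genes of uptake are counted in a list below.

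Livers of mice of 2 inbred strains, C57BL/6J and A/J, were sequenced for RNA on 3 diets, with 2 libraries per strain and diet and 12 in all. The Control group ate control diet for 16 weeks, the HF group ate high fat diet for 16 weeks, and the Reversal group ate high fat diet for 8 weeks and control diet for the next 8 weeks. No label gives a genetic change, the sex or the age of the mice, and whether a group's 2 libraries are separate mice is not stated. A p-value thus covers the variation among these libraries alone, part or all of which can be technical. The tables used here give 1 value per transcript and strain and none per library, and how deeply each library was sequenced is unknown.

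As background, the transcription factor SREBP-2, the product of Srebf2, is held in the endoplasmic reticulum while sterols are plentiful and is released to switch on genes of cholesterol synthesis and uptake when they run low. Excess sterol leaves the hepatocyte in bile through the heterodimer of ABCG5 and ABCG8, whose genes respond to the liver X receptor, or is turned into bile acids, which the bile salt export pump ABCB11 secretes into the canaliculus. Bile acids act through the farnesoid X receptor, which raises Abcb11 and Nr0b2. The product of Nr0b2, called SHP, is a nuclear receptor without a DNA-binding domain that dampens bile acid synthesis. CYP7B1 is the oxysterol hydroxylase of the alternative route of bile acid synthesis, and its transcript is more abundant in male than in female mouse liver.

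Promoter sequence from RefSeq (GRCm38.p6) was at hand for 5 of the 6 genes, in windows of 300 bases that run from 250 before a start to 50 after it. It is shown because Abcg5 and Abcg8 had almost the same values below and start back to back. Whether this layout bears on their values was not tested. Abcg8 had 2 windows, and the one with the highest coordinate was used here. Its start and that of Abcg5 lie on opposite strands with 109 bases between them, and the windows share 209 bases. In the table of promoters, 2936 of 27025 genes (10.9%) have a window that overlaps that of a gene starting in the opposite direction in this way. The stretch between both starts, chr17:84683012-84683120, is printed on the plus strand, the direction of Abcg8, and its reverse complement runs in the direction of Abcg5. The other 3 stretches are those in which the windows of Srebf2, Abcb11 and Nr0b2 held a searched motif, in the direction of each gene, with the match in capitals. They lie at chr15:82147087-82147135 (plus strand), chr2:69342647-69342699 (minus strand) and chr4:133553161-133553206 (plus strand).
Abcg5 and Abcg8: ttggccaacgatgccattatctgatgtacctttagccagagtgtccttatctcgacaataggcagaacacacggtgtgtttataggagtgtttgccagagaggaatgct
Srebf2: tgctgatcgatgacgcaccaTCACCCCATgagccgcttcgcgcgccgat
Abcb11: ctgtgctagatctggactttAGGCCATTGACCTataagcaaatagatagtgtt
Nr0b2: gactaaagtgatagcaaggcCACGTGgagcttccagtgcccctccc

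In the Abcb11 window the capitals begin 63 bases before the start and mark an inverted repeat, AGGTCA and its reverse complement facing each other 1 base apart, the arrangement bound by the farnesoid X receptor. The match differs from the repeat in 1 letter (T4C, counted from 1 at the 5′ end of the repeat). With at most 1 letter differing, 27 of 32851 promoter windows (0.0822%) held this repeat, and none of the other member windows did. In the Srebf2 window the capitals begin 162 bases before the start and differ in 1 letter (C9T) from TCACNCCAC, the core of the sterol regulatory element to which SREBP proteins bind. Such a match was common, in 24.2% of all windows with 1 letter differing and in 1.24% with none. In the Nr0b2 window the capitals mark CACGTG, an E-box, 195 bases before the start, which 7.15% of windows held. The motifs were searched on both strands, and a match is a description of the letters and not of binding in these livers.

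The deposited tables give for each transcript a log2 fold change between a pair of diets that the header does not name, its standard error (SE), and a likelihood ratio statistic from DESeq2 that tests all 3 diets together. A sign therefore reads neither as higher nor as lower on high fat diet, and no value below says which diet stood apart. The squared ratio of the fold change to its SE is the part of the statistic that the contrast can account for, called here the contrast share when given as a percentage of the statistic. What is left belongs to the remaining diet, called the third diet below. For 3 diets of equal size and spread, the distance of the third diet from the midpoint of the other 2 is the SE times the square root of 0.75 times the remaining statistic. This distance is an approximation without a sign, so that the third diet has 2 possible places, 1 on each side of the midpoint. Because all rows passed a threshold, sizes in these tables tend to be too large.

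The shares above are 681 of 19658 transcripts tested in C57BL/6J and 699 of 20591 in A/J, in the authors' deposited tables, at an adjusted p-value under 0.05. Since the members were chosen from these rows, their number is not read against these shares. The member nearest to the threshold was Nr0b2, with an adjusted p-value of 0.0157 from DESeq2 in the authors' deposited table of A/J. For a member without a row in a strain there is no value, adjusted or not, and whether the strains differ in any member was not tested. Of the 455 named genes in the C57BL/6J table and the 482 in the A/J table, 75 were in both, which is 16.5% of the first and 15.6% of the second. In whole liver, fewer cells of a type and less RNA per cell cannot be told apart.

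**Figure D1:**
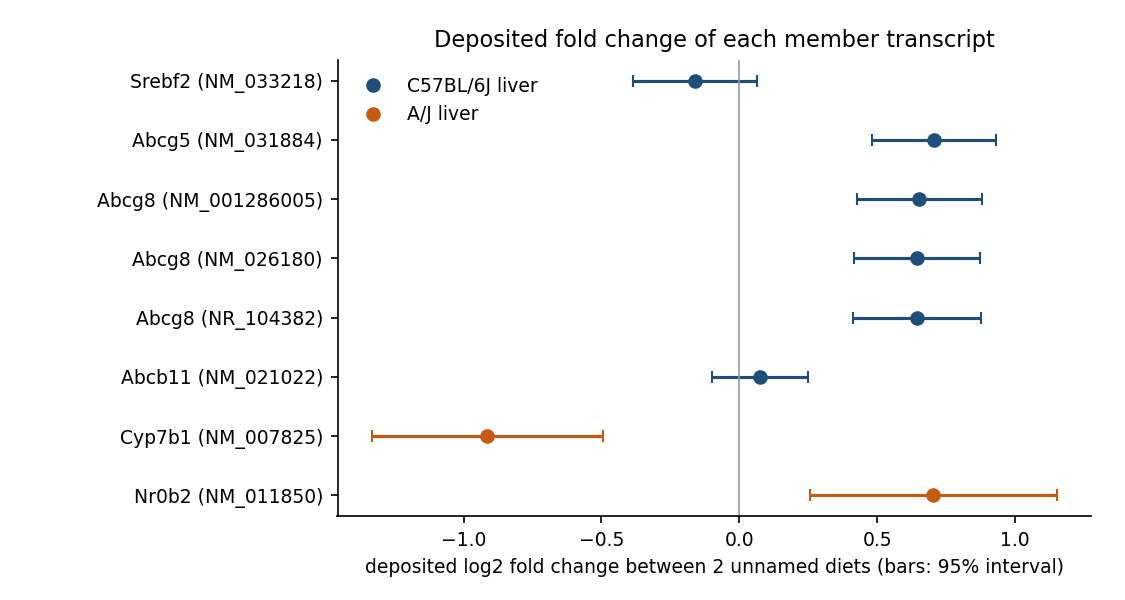
Deposited log2 fold change between 2 unnamed diets (horizontal axis) for each member transcript (vertical axis), as points with 95% intervals, in C57BL/6J (blue) and A/J (orange) liver. The intervals of Abcg5, the 3 Abcg8 transcripts, Cyp7b1 and Nr0b2 leave out 0, while those of Srebf2 (-0.39 to 0.06) and Abcb11 (-0.10 to 0.25) include it.

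Srebf2, the sterol-responsive regulator, differed between diets in C57BL/6J, and little of that difference lay in the deposited contrast. Its transcript NM_033218 had a mean normalised count of 1746 over the 6 C57BL/6J libraries in the authors' deposited table. The log2 fold change was -0.16 ± 0.11 (SE), with a 95% interval from -0.39 to 0.06, in the authors' deposited table. The likelihood ratio statistic was 19.0 with an adjusted p-value of 0.00465 from DESeq2 in the authors' deposited table. The contrast share was 10.5%, so that 89.5% of the statistic was left for the third diet. That diet lay about 0.41 ± 0.10 (SE) from the midpoint of the other 2 on the log2 scale, that is at -0.49 or at 0.33 when the first diet of the contrast is set to 0. The largest gap between any 2 diets was then about 0.49, or 1.40-fold.

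Abcg5 and Abcg8, the genes of the sterol exporter, had the highest statistics among the members, and most of their difference lay within the contrast. Abcg5 (NM_031884) had a mean normalised count of 3379 in the authors' deposited table. Its log2 fold change of 0.71 ± 0.11 (SE), in the authors' deposited table, corresponds to 1.63-fold with a 95% interval from 1.40 to 1.91. Its statistic of 45.4, with an adjusted p-value of 4.72e-08 from DESeq2 in the authors' deposited table, ranked 34 among the 455 genes. The contrast share was 84.2%. By comparison, 118 of the 455 genes (25.9%) had a share over 80%, and the median was 35.9%.

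Abcg8 had 3 rows in the C57BL/6J table out of 4 curated RefSeq transcripts. For NM_001286005 the log2 fold change was 0.65 ± 0.12 (SE), with an adjusted p-value of 1.09e-06 from DESeq2 in the authors' deposited table. NM_026180 and the noncoding NR_104382 had 0.65 ± 0.12 (SE) each in the authors' deposited table, with statistics of 37.0 and 35.1. The 3 fold changes differed by no more than 0.00797 on the log2 scale. Transcripts of 1 gene share most of their reads, so these rows are 1 measurement rather than 3. Mean normalised counts ran from 3257 to 3607 across the 3 rows of Abcg8 in the authors' deposited table.

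The values of the 2 exporter genes were alike. The fold change of Abcg5 exceeded that of the leading Abcg8 transcript by 0.05 on the log2 scale, less than the SE of either gene. The contrast share of Abcg8 was 83.0% for the leading transcript. The distance of the third diet from the midpoint was 0.27 ± 0.10 (SE) for Abcg5 and 0.26 ± 0.10 for the leading Abcg8 transcript. With the first diet of the contrast at 0 and the second at 0.71, the third diet lay at 0.09 or at 0.62 for Abcg5, close to an end of the range in either case. For Abcg8 the places were 0.07 or 0.58, with the second diet at 0.65. The SE of 0.11 for Abcg5 corresponds to a spread between libraries of about 7.93% of the mean, against a median of 11.4% over the genes in the C57BL/6J table, under the assumption of 2 libraries for each diet.

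Abcb11, which encodes the bile salt export pump, showed the opposite layout. NM_021022 had a mean normalised count of 21319 in the authors' deposited table, rank 31 of 455 by that count, which is not divided by transcript length. The log2 fold change was 0.08 ± 0.09 (SE) in the authors' deposited table, within 1 SE of 0. The statistic was nonetheless 33.1, with an adjusted p-value of 1.23e-05 from DESeq2 in the authors' deposited table. The contrast share was 2.19%, so that almost all of the difference lay with the third diet. That diet stood 0.44 ± 0.08 (SE) from the midpoint, at -0.40 or at 0.48, and the largest gap between 2 diets was about 1.39-fold. A share under 20% was common in this strain, in 178 of 455 genes (39.1%).

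**Figure D2:**
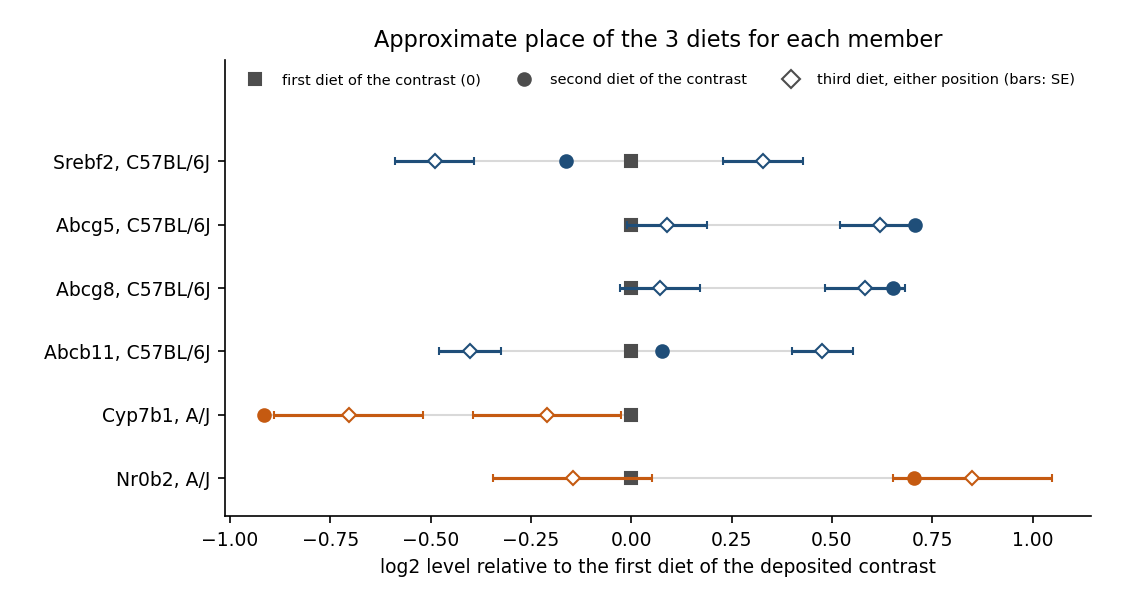
Approximate log2 level of each diet relative to the first diet of the deposited contrast (horizontal axis) for each member and its strain (vertical axis): squares mark the first diet, filled circles the second, and open diamonds the 2 possible places of the third diet with the SE of its distance from the midpoint. For Abcb11 and Srebf2 the 2 contrast diets lie within 0.16 of each other and both diamonds lie outside them, while for Abcg5, Abcg8 and Cyp7b1 both diamonds lie between the contrast diets.

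Cyp7b1, the oxysterol hydroxylase gene, had the largest fold change of the members, in A/J liver. NM_007825 had a mean normalised count of 5531 in the authors' deposited table. The log2 fold change was -0.91 ± 0.21 (SE), a difference of 1.88-fold with a 95% interval from 1.41 to 2.52, in the authors' deposited table. The statistic was 20.1 and the adjusted p-value 0.00268 from DESeq2 in the authors' deposited table. The contrast share of 91.1% was the highest of the members, against a median of 19.7% over the A/J genes. The third diet lay 0.25 ± 0.19 (SE) from the midpoint, at -0.70 or at -0.21, between the contrast diets, and the 95% interval of that distance includes 0.

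Nr0b2, the gene of the repressor SHP, was the member with the smallest statistic. NM_011850 had a mean normalised count of 1003 in the authors' deposited table. The log2 fold change was 0.70 ± 0.23 (SE), which is 1.63-fold with a 95% interval from 1.19 to 2.22, in the authors' deposited table. The statistic of 15.8 ranked 343 among 482 genes in the authors' deposited table. The contrast share was 60.1%. The third diet lay 0.50 ± 0.20 (SE) from the midpoint, at -0.15 or at 0.85, in either case within 1 SE of a contrast diet.

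In the A/J table Cyp7b1 was negative and Nr0b2 positive in the same contrast and the same libraries. Of all named genes in that table, 234 were negative and 248 positive. A link between Cyp7b1 and Nr0b2 was not tested. The SEs of these 2 genes correspond to a spread between libraries of about 14.8% and 15.9% of the mean, above the median of 11.6% for genes in the A/J table and above the 6.17% to 8.25% of the C57BL/6J members.

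**Figure D3:**
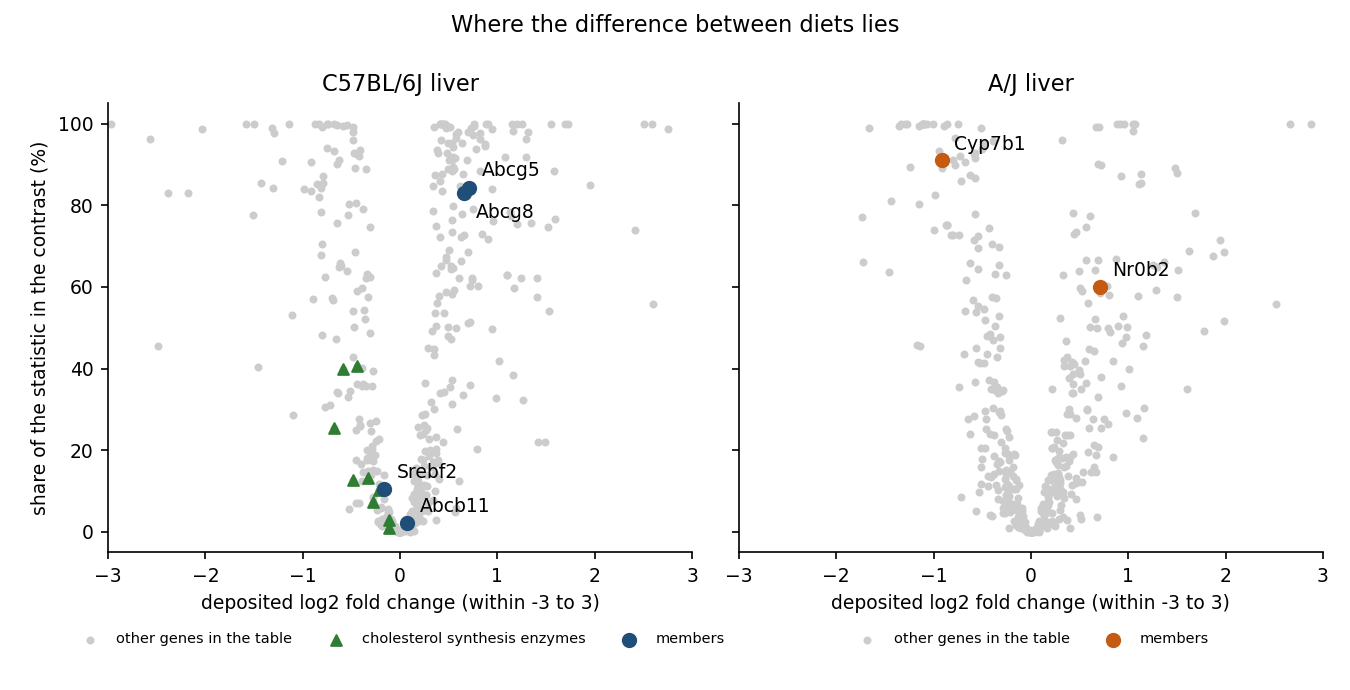
Share of the likelihood ratio statistic that lies in the contrast, in percent (vertical axis), against the deposited log2 fold change (horizontal axis), for 1 transcript per named gene in C57BL/6J (left) and A/J (right) liver, with the members named and cholesterol synthesis enzymes as triangles. Abcg5 and Abcg8 lie side by side at 84.2% and 83.0%, and Srebf2 and Abcb11 lie at 10.5% and 2.19%, while the enzymes spread from 0.79% to 40.6%; 5 C57BL/6J and 6 A/J genes beyond -3 or 3 are not drawn.

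By fold change and contrast share together, the genes nearest to each member in its table were found over 3 diets of 1 strain, with distances that combine the log2 difference and the difference of shares written as fractions. Abcg5 had Abcg8 as its nearest gene, at a distance of 0.06, followed by Acot11 at 0.07. Abcg8 itself had Dcxr and Pxmp2 nearest, at 0.04 and 0.05, so that nearness was not mutual. Srebf2 was nearest to Syvn1 and Tab2, at 0.03 each. For Abcb11 the nearest were Atp6v1g1 at 0.0036 and the cytochrome gene Cyp2e1 at 0.0066. In A/J, Cyp7b1 was nearest to Zfp771 and the fatty acid elongase gene Elovl3, at 0.02 and 0.04, and Nr0b2 to the cytochrome gene Cyp2c39 and to Fads3, at 0.02 and 0.06. The measure leaves the side of the third diet out, so that near genes can still differ in that diet.

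Of 101 other genes in 7 lists by role, 21 had a row in C57BL/6J (16 negative, 5 positive) and 11 in A/J (6 negative, 5 positive). These are 20.8% and 10.9% of the listed genes, while 3.46% and 3.39% of all transcripts tested were called. The shares are not on the same basis, since a gene with several transcripts can be called through any of them and the lists hold genes known to act in liver. Without the cholesterol synthesis enzymes, 12 of 81 listed genes had a row in C57BL/6J and 11 of 81 in A/J. The 9 such enzymes with a row in C57BL/6J were all negative. Among all named genes with a row, 190 were negative and 265 positive in C57BL/6J, and 234 were negative and 248 positive in A/J. Medians over all features tested cannot be set beside the listed genes, since the tables hold called transcripts only. For the same reason no count at an unadjusted p-value can be given beside a count of 0.

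Among the targets of SREBP-2, 9 of 20 cholesterol synthesis enzymes had a row in C57BL/6J and 0 in A/J at an adjusted p-value under 0.05 from DESeq2. All 9 were negative in the contrast, in a table with 265 positive and 190 negative named genes. Their median log2 fold change was -0.33, against 0.12 over the named genes of that table, and 5 had an interval that left out 0. Their contrast shares ran from 0.79% to 40.6% with a median of 12.7%, beside 10.5% for Srebf2. Low shares were common, with 178 of the 455 named genes of that table (39.1%) under 20%. The third diet lay between 0.47 and 1.09 from the midpoint in these enzymes and 0.41 from it in Srebf2. On which side it lay is unknown for each gene, and a link between Srebf2 and these enzymes was not tested. Msmo1, which demethylates sterols, had the highest of these statistics, at 73.6 in the authors' deposited table, followed by Idi1 at 39.4, and Mvd and Fdft1 came next.

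Among uptake and intracellular handling genes 3 of 15 had a row in each strain, and at an adjusted p-value threshold of 0.01 from DESeq2 C57BL/6J had 1 left and A/J had 0. Soat2, which esterifies cholesterol, had 0.00 ± 0.13 (SE) in C57BL/6J, in the authors' deposited table, with the third diet 0.44 ± 0.11 from the midpoint. It thus had the layout of Srebf2 and Abcb11, with nearly the whole statistic outside the contrast. In A/J the genes with a row included Lipa, the lysosomal acid lipase gene, at 0.13 ± 0.11 (SE), and the sterol-binding protein gene Osbpl3 at 0.38 ± 0.26, in the authors' deposited table.

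Sterol sensing genes had 0 of 12 rows in C57BL/6J and 2 of 12 in A/J at an adjusted p-value under 0.05 from DESeq2. Insig2, whose product retains the SREBP escort protein in the endoplasmic reticulum, had -0.06 ± 0.10 (SE) with a statistic of 66.5 in A/J, in the authors' deposited table, with the third diet 0.72 ± 0.09 from the midpoint. Srebf1, the related factor of fatty acid synthesis, had -0.26 ± 0.18 (SE) in the authors' deposited table of that strain. Srebf2 had no row in that strain.

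Of the other export genes few had a value. In C57BL/6J 1 of 9 had a row, Apoa1, the main protein of HDL, at -0.44 ± 0.16 (SE) in the authors' deposited table, with a share of 59.1%. In A/J there were 2 of 9: Pltp, which transfers phospholipid between lipoproteins, at 0.46 ± 0.20 (SE) with a statistic of 45.2, and Abcb4, the canalicular phospholipid exporter gene, at 0.11 ± 0.12, in the authors' deposited table. Their contrast shares were 11.9% and 5.90%, where the median of the A/J table was 19.7%.

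**Figure D4:**
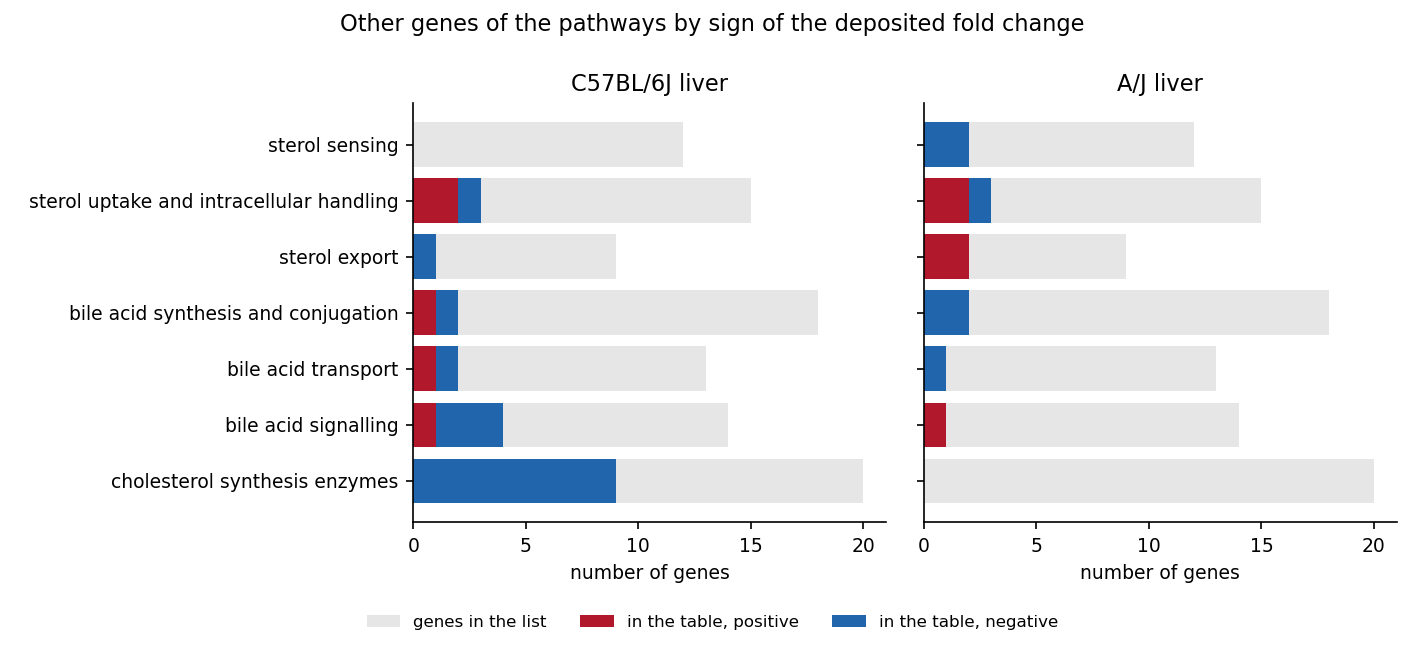
Number of genes (horizontal axis) in each of 7 lists by role (vertical axis) in C57BL/6J (left) and A/J (right) liver: grey bars give the list's size, and red and blue the genes with a row and a positive or negative deposited fold change. Cholesterol synthesis enzymes hold 9 rows in C57BL/6J and 0 in A/J, and no other list holds more than 4.

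Bile acid synthesis and conjugation had 2 of 18 genes with a row in each strain. None was in both tables. Over all named genes 16.5% and 15.6% were, so that nothing is read from 2 genes. In C57BL/6J the oxysterol hydroxylase gene Cyp39a1 had -0.53 ± 0.16 (SE) and Cyp2c70, which makes muricholic acids, had 0.47 ± 0.16 in the authors' deposited table. Beside Cyp7b1, the A/J table held 2 others: Akr1c6 had -0.35 ± 0.11 (SE) and Hsd3b7, which acts after the sterol hydroxylases in both routes, -0.16 ± 0.09 in the authors' deposited table. Cyp7a1 and Cyp8b1, enzymes of the classic route, had no row in either strain.

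Of 13 bile acid and organic anion transporters other than Abcb11, 2 had a row in C57BL/6J and 1 in A/J. Slco1a1 and Slco2b1, uptake carriers of the basolateral membrane, had -0.75 ± 0.13 (SE) and 0.42 ± 0.11 in C57BL/6J in the authors' deposited table. Their contrast shares were 94.1% and 96.1%, against 2.19% for Abcb11. In A/J, Slc22a7 had -0.63 ± 0.13 (SE), in the authors' deposited table, with a share of 87.4%.

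Of 14 regulators of bile acid metabolism other than Nr0b2, 4 had a row in C57BL/6J and 1 in A/J. Hnf4a, a nuclear receptor of hepatocyte identity, had -0.35 ± 0.10 (SE), the forkhead factor gene Foxa2 0.83 ± 0.18, the xenobiotic receptor gene Nr1i3 -0.19 ± 0.17 and the hormone gene Fgf21 -2.97 ± 0.32 in C57BL/6J, in the authors' deposited table. The authors' deposited table of A/J gave Fgf21 0.65 ± 0.32 (SE). Its contrast share was 100% in C57BL/6J, where the squared ratio exceeded the statistic. In A/J the share was 15.8%, with the third diet 1.29 ± 0.27 (SE) from the midpoint. Since the diets of neither contrast are named, the 2 signs of Fgf21 are not compared. Nr1h4, the gene of the farnesoid X receptor, and Nr5a2 had no row in either strain.

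Of 49 markers of 7 cell types, 0 had a row in C57BL/6J and 3 in A/J at an adjusted p-value under 0.05 from DESeq2. Of all transcripts tested, 3.46% and 3.39% were called, and nothing is read from counts this small. The 3 in A/J included 2 of 8 macrophage markers. Marco had 1.09 ± 0.41 (SE) and Cd5l 0.40 ± 0.22 in the authors' deposited table of A/J, which also holds Cyp7b1 and Nr0b2. The part of these markers in the values of those 2 genes was not tested. The symbols of 7 of the 8 hepatocyte markers and 5 of the 6 enterocyte markers were known, so the others could match no row. Of the hepatocyte markers 0 had a row in either table. Their levels cannot be read, because a table of differing transcripts does not list the rest.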

How the data were processed

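RNA-seq of 12 liver libraries (2 strains, 3 diets, 2 libraries each) was used as 2 tables of results, 1 per strain. The submitters' processing notes name Bowtie2, TopHat, DESeq2 and mm9, with no version and no role. Per the file headers, the deposited columns are those of DESeq2: a mean normalised count, a log2 fold change with its standard error on the log2 scale, a test score, a p-value and an adjusted p-value. The score that the authors deposited is the likelihood ratio statistic, since every deposited p-value is the chi-square upper tail probability of its score for 2 degrees of freedom. The number of transcripts tested follows from the p-value, its rank and the adjusted p-value. The tables hold no values per library, so depth is unknown and nothing was refitted.

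RefSeq accessions were matched to symbols with a table of GRCm38.p6, used for names only: 675 of 681 transcripts in C57BL/6J and 690 of 699 in A/J matched. The transcript with the smallest p-value stood for a gene in counts, and all member transcripts are given. Intervals are at 95% from the normal distribution. The split of the statistic was chosen after the tables were seen and is an approximation. The squared ratio exceeded the statistic in 36 rows of C57BL/6J and 28 of A/J, where the remainder was set to 0. The spread between libraries was taken as the standard error times the natural log of 2. It was thus derived from the deposited fit and not measured from values per library. The 6 members, the gene lists and the tests were chosen with earlier results of these data known. Named genes are the members, up to 4 genes per list and strain with the smallest adjusted p-value, the 2 genes most like each member, and, added after their values were seen, Cyp7a1, Cyp8b1, Nr1h4, Nr5a2 and cell type markers with a row. Some genes that meet this rule are not reported here. The 6 FAIRE-seq peak lists were not used, since gene positions in mm9 were not at hand. Python 3.11.15, pandas 2.3.3, numpy 2.4.6 and scipy 1.17.1 were used.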

Additional observations from a re-analysis of the deposited data

How the results depend on the processing

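At an adjusted p-value threshold of 0.01, C57BL/6J held the same 4 members, while A/J held 1 of its 2, since Nr0b2 was lost. Under Bonferroni adjustment over all transcripts tested, 3 C57BL/6J members remained and Srebf2 was lost (adjusted p 1), and 0 A/J members remained, with adjusted p of 0.912 for Cyp7b1 and 1 for Nr0b2, from the DESeq2 p-values of 4.43e-05 and 0.00037. Listed genes with a row numbered 10 under Bonferroni adjustment in C57BL/6J, against 21, and in A/J 7 at the threshold of 0.01 and 4 under Bonferroni adjustment, against 11. At the threshold of 0.01, C57BL/6J kept 0 of its 1 export, 1 of its 2 bile acid synthesis and 1 of its 2 transport genes, and A/J 1 of its 2 export genes. Under Bonferroni adjustment uptake and handling genes numbered 0 in both strains, bile acid synthesis genes 0 in A/J, and bile acid signalling genes 1 in C57BL/6J. These alternatives apply a stricter threshold to the same values. Taking the transcript with the highest mean count, a 99% interval, or, chosen after seeing the data, the remaining statistic less 1 changed no member's call and moved no member's value by over 1 SE. Matching synonyms could change none of the 7 lists by role, since all their symbols were already known, and it was not tried for the cell type markers. No paired analysis was possible because the tables hold no values per library, and for the same reason leaving out a library, another normalization and another filter were not run. Depth per library is unknown.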

Other observations

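Motifs without a match in any member window were the direct repeats of AGGTCA with 4 bases between (bound by the liver X receptor) and with 1 base between (bound by HNF4A), and CAAGGTCA, an element of NR5A2. Exact matches to the direct repeat with 4 bases between were rare, in 5 of 32851 windows, and CAAGGTCA was in 1.56%. The single site AGGTCA was in 16.3% of windows and, among the members, in that of Abcb11, where it is part of the inverted repeat. The windows of Abcg5 and Abcg8 held none of the 7 motifs, and this says only that these letters are not in them. Cyp7b1 had no window in the table.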
